A study of Arabidopsis thaliana with 28 samples.

Results

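The genes described here are those whose messenger RNA was lower in Arabidopsis thaliana seedlings given abscisic acid (ABA) than in seedlings given an ethanol mock at all 7 times sampled. They are 143 of the 33557 genes in the deposited table. The measure was an effect on the log2 scale, log2((ABA FPKM + 1)/(mock FPKM + 1)), where FPKM is a fragment count scaled for transcript length and sequencing depth. A gene was a member if its effect was -0.8 or lower at each of 0.5, 1, 3, 6, 9, 12 and 24 h, which is a ratio of at most 0.574, and if the mean of its 7 mock values was at least 5 FPKM. Members made up 1.00% of the 14245 genes with such a mean mock level, and 183 of the same 14245 genes had an effect of at least 0.8 at all 7 times. Induced genes with a lower mean mock level are not in that count of 183. Every ABA-against-mock value of a member below is therefore a description of what the rule selected and carries no test. Without the 0.5 h pair the same rule gave 241 genes, and without any other single time it gave 143 to 163. The members nearest the threshold were the transcription factor genes LBD25 (largest effect -0.81, at 1 h) and NAC097 (-0.80, at 1 h) and the E6-like protein gene AT1G03820 (-0.80, at 12 h). Just outside it were AT2G41990 (-0.80, at 12 h), bZIP3 (-0.80, at 24 h) and NAXT1 (-0.79, at 0.5 h).

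The 14 groups were wild-type Col-0 seedlings incubated with ABA for 0.5, 1, 3, 6, 9, 12 or 24 h, and Col-0 seedlings kept under an ethanol mock for the same 7 times. Each group had 2 sequencing libraries, 28 in all, and the authors deposited 1 value per gene and group from the 2 together. Replicate error is therefore unknown for every level and difference given here. The sources used here state neither the dose of ABA, nor the seedlings' age, nor whether paired libraries came from separate cultures.

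ABA is the plant hormone of drought and seed dormancy. It binds receptors of the PYR/PYL family, and the bound receptor inhibits clade A protein phosphatases (PP2Cs), which frees SnRK2 kinases to phosphorylate transcription factors. Many genes induced by this pathway carry the ABA-responsive element (ABRE) in their promoters, while growth, cell wall and defence genes are often lower in ABA-treated plants.

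The lowest values of each pool implied a depth of about 3.35e+07 to 5.07e+07 fragments, and 18634 to 18930 genes reached 1 FPKM in a pool. The treatment was visible in the clade A PP2C genes, of which 7 of 9 were called higher at all 7 times in the authors' deposited table, with summed levels of 693 to 1639 FPKM in the ABA pools and 79.95 to 114 FPKM in the mock pools. Leaf mesophyll markers (RBCS1A, RCA and LHCB1.3) summed to 24320 to 60338 FPKM in the ABA pools and 21820 to 58463 FPKM in the mock pools, and 7 root markers to 69.9 to 210 FPKM under ABA and 71.1 to 204 FPKM under mock, as whole seedlings would hold. The 4 guard cell markers (MYB60, KAT1, HT1 and FAMA) summed to 18.6 to 25.4 FPKM in the ABA pools and 30.2 to 36.6 FPKM in the mock pools, without overlap. Of these, MYB60 had a mean effect of -1.07 and the other 3 had -0.13 to -0.27, none was listed at 0 in any pool, and none was a member. The 4 seed markers (CRU3, CRA1, OLEO1 and SESA1) summed to 24.8 to 71.7 FPKM in the ABA pools and 3.32 to 24.7 FPKM in the mock pools. The part of these cells in the members' values was not tested. In RNA from whole seedlings, fewer cells of a type and less RNA per cell cannot be told apart.

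As a group, the members lay closest to the mock at 0.5 h and were lowest between 3 and 9 h. Their median effect was -1.35 at 0.5 h, -1.57 at 1 h, -2.32 at 3 h, -2.30 at 6 h, -2.20 at 9 h, -2.11 at 12 h and -1.96 at 24 h, while the median over all 14245 genes with a mean mock level of at least 5 FPKM stayed between -0.05 and 0.02. At 24 h this median over all genes held opposite shifts of short and long transcripts, given below. The lowest of a member's 7 effects fell at 3 h for 43 members, at 1 h for 26 and at 0.5 h for 4. An effect of -2 or lower, a 4-fold difference on this scale, was reached by 34 members at 0.5 h, 91 at 6 h and 69 at 24 h, and 76 members had a mean effect that low, beside 0.435%, 1.83%, 1.6% and 1.07% of the 14245 genes. For scale, an effect of -0.8 or lower was found in 3.80% of the 14245 genes at 0.5 h, 4.78% at 1 h, 11.0% at 3 h, 12.0% at 6 h, 8.99% at 9 h, 8.68% at 12 h and 10.3% at 24 h.

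**Figure D1:**
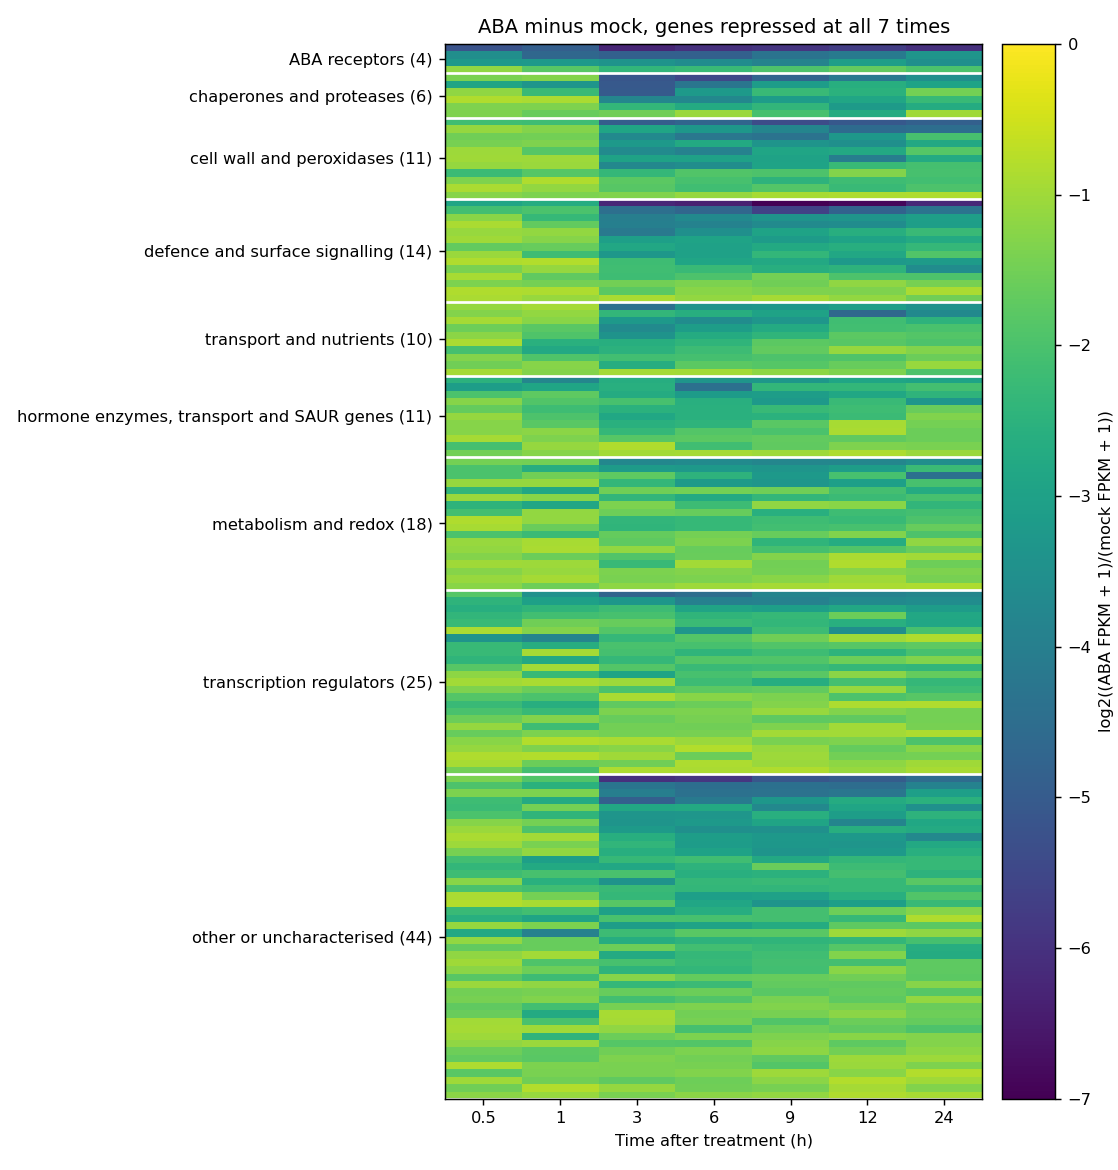
Effect of ABA on each of the 143 members (rows, grouped by role, with the number of genes in brackets) at the 7 times (columns); colour gives log2((ABA FPKM + 1)/(mock FPKM + 1)), with darker for lower. The median over members is -1.35 at 0.5 h and -2.32 at 3 h, and the darkest row of each of the receptor and defence groups is PYL6 and EARLI1.

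The authors' own calls covered most of these values. Calls at all 7 times were made for 120 members in the authors' deposited table, and 1.17% of all 33557 genes carried them. A further 9 members were called lower at 5 or 6 times, 13 at 1 to 4 times and 1, the uncharacterised gene AT5G61412, at none in the authors' deposited table. Members named below with fewer than 7 calls include CRK30 and DTX1 (5 times), SAUR5, ZAT7 and AT5G23350 (4) and AT4G38820 (2). Per time, the authors' deposited table called 140, 138, 130, 132, 132, 129 and 136 members lower from 0.5 to 24 h, beside 6.79, 6.19, 12.1, 13, 11.1, 10.9 and 11.3% of all genes. These shares are for reference only, since the rule used the same contrast. They cover all 33557 genes, while members were drawn from the 14245 with a mean mock level of at least 5 FPKM. Of the 1001 pairs of member and time, the 64 without a call in the authors' deposited table had a median effect of -2.69 and a median ABA level of 0.148 FPKM, while the 937 with a call had -1.94 and 4.70 FPKM. Comparing all times at once, the highest ABA pool lay below the lowest mock pool in 104 members (3.73% of the 14245 genes did so), and the pools of the other 39 overlapped.

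Receptor genes had the lowest median of mean effects among the role groups. The 4 members that encode ABA receptors, PYL4, PYL5, PYL6 and PYR1, had a median mean effect of -3.83, and none of the 4 had overlapping ABA and mock pools. Their mean mock levels were 61.6 to 208 FPKM. PYL6 had a lowest, median and highest level of 0, 0.0788 and 0.458 FPKM in the ABA pools, against 42.3, 63.7 and 92.6 FPKM in the mock pools. It was low within 0.5 h, at 0.194 FPKM under ABA and 42.8 FPKM under mock, was listed at 0 in the 24 h ABA pool, and its mean effect of -5.73 was the lowest of all members. Even so, the authors' deposited table called PYL6 lower at 4 of the 7 times only.

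PYL4 stood at 6.59, 9.34 and 17.1 FPKM (lowest, median and highest) in the ABA pools, against 122, 210 and 278 FPKM in the mock pools. Its effect was -3.54 at 0.5 h, lowest at 6 h with -4.85, and -3.34 at 24 h. For PYL5 the ABA pools gave 6.14, 8.98 and 23.7 FPKM and the mock pools 83.9, 106 and 229 FPKM. Its 7 effects spanned -3.09 to -3.86. PYL5 fell with time in the ABA pools (slope -0.31 ± 0.066 log2 units per doubling of hours, SE of the line, adjusted p = 0.0220, limma with Benjamini-Hochberg) and in the mock pools (-0.26 ± 0.050, adjusted p = 0.0111, limma). The ABA call was lost without the 0.5, 1 or 12 h pool and the mock call without the 0.5 h pool. PYR1 was the least affected of the 4, with 31.8, 34.2 and 54.2 FPKM in the ABA pools against 107, 137 and 191 FPKM in the mock pools and effects of -1.18 at 0.5 h and -2.40 at 3 h.

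The stretches before PYL4, PYL5 and PYL6 are shown because these receptor genes have mean effects of -3.43 or lower and because the ABRE, the element through which ABA induces genes, can be looked for in them. They are the 250 bases before the annotated gene start, from RefSeq on TAIR10.1, written 5′ to 3′ on the gene's own strand, at chr2:16049668-16049917 (plus strand), chr5:1608738-1608987 (plus) and chr2:16846195-16846444 (minus). Capitals would mark the ABRE core ACGTG or its reverse complement CACGT.
PYL4: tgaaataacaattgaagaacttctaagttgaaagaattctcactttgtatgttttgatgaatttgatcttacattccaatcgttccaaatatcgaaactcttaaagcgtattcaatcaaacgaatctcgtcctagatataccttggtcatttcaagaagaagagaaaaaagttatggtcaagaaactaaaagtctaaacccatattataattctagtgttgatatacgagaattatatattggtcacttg
PYL5: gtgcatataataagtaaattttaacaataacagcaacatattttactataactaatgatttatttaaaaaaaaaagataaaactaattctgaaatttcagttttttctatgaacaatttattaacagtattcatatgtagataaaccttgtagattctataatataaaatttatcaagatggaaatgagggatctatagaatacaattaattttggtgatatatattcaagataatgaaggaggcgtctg
PYL6: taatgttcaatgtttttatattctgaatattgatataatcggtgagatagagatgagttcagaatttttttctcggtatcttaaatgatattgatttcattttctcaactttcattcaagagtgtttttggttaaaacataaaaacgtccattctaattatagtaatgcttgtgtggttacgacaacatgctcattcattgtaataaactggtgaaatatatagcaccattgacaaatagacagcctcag
None of these 3 stretches held a match to the core, so all letters are in lower case. The absence says only that these letters are not in this window.

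The other receptor genes lay closer to the mock. Of 14 PYR/PYL genes, 5 were called lower at all 7 times in the authors' deposited table, namely PYR1, PYL1, PYL4, PYL5 and PYL8, and none was called higher at all 7. PYL8, with a mean effect of -1.11, and PYL1, with -0.89, missed the member rule at some time (highest effects -0.45 and -0.64). PYL7 and PYL9 had mean effects of 0.37 and 0.07, and PYL3, PYL10, PYL11, PYL12 and PYL13 had mean mock levels below 0.5 FPKM. Summed over the 14 genes, receptor mRNA was 148 to 232 FPKM in the ABA pools and 617 to 863 FPKM in the mock pools.

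**Figure D2:**
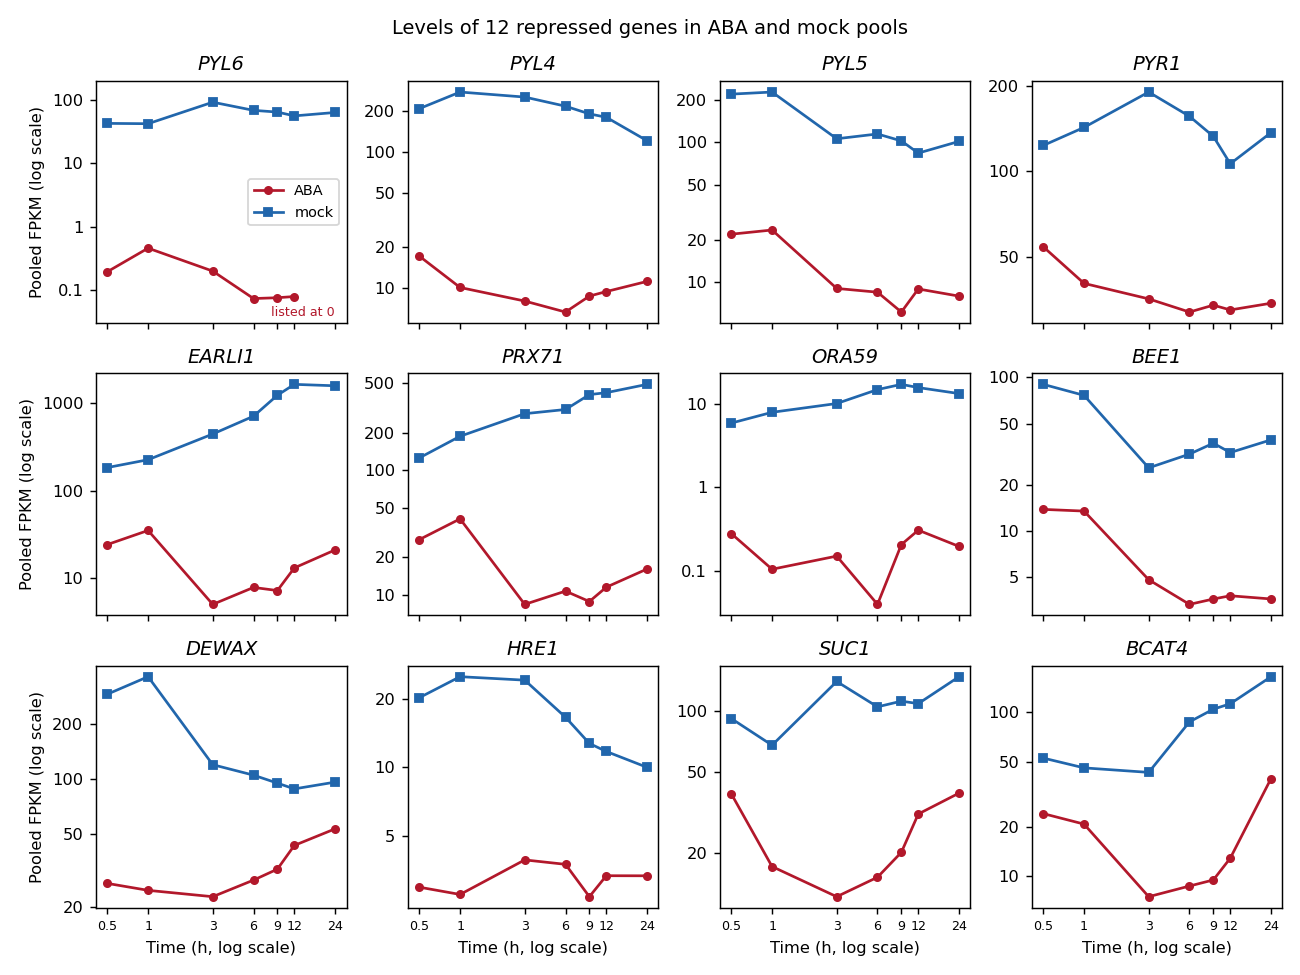
Pooled FPKM (log scale, with a different range in each panel) against time in hours (log scale) for 12 members picked across the roles after their values were seen; red circles are ABA pools and blue squares mock pools, each point 1 pool of 2 libraries, without error bars. In every panel the ABA line lies below the mock line, with PYL6 listed at 0 in the 24 h ABA pool.

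Transcription regulators were the largest role group with a known function, 25 members with a median mean effect of -1.73. Of the 25, 10 had their lowest effect by 1 h, while among all 143 members it fell at 0.5 h for 4 and at 1 h for 26. The group's median effect was -1.81 at 0.5 h, -1.71 at 3 h and -1.75 at 24 h, beside -1.35, -2.32 and -1.96 for all members. The lowest mean effects belonged to AT2G43140, which encodes a basic helix-loop-helix (bHLH) protein (-3.72), and to ORA59 (-3.41), an AP2/ERF factor that joins jasmonate and ethylene signals at defence genes. ORA59 had 0.0396, 0.196 and 0.308 FPKM (lowest, median and highest) in the ABA pools, against 5.93, 13.4 and 17.3 FPKM in the mock pools. AT2G43140 had 0.135, 0.228 and 0.641 FPKM under ABA, against 4.85, 15.3 and 29.2 FPKM under mock. Both were below 1 FPKM in all 7 ABA pools, and the authors' deposited table called ORA59 lower at 3 times and AT2G43140 at 5.

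Other regulators included a pair of related bHLH genes. BEE1, a bHLH factor of early brassinosteroid responses, was at 3.32, 3.78 and 13.8 FPKM in the ABA pools, against 25.7, 37.2 and 90.0 FPKM in the mock pools, and its relative BEE3 was at 9.34, 18.4 and 26.9 FPKM under ABA, against 43.5, 52.4 and 90.7 FPKM under mock. The difference at BEE1 widened a little, with an effect of -2.62 at 0.5 h and -3.13 at 24 h, while that at BEE3 narrowed, with -2.24 and -0.84. DEWAX, an AP2/ERF repressor of cuticular wax genes, had the largest narrowing among the 143 members: its effect was -3.38 at 0.5 h and -0.83 at 24 h. DEWAX had 22.9, 28.2 and 53.6 FPKM in the ABA pools, against 88.5, 105 and 362 FPKM in the mock pools. Its mock level fell with time (slope -0.38 ± 0.067, adjusted p = 0.00878, limma), which held without each pool in turn, while its ABA slope of 0.17 missed the threshold (adjusted p = 0.0715, limma). Of the 7 wax genes listed with it, KCS6 was called higher at all 7 times in the authors' deposited table, and none other than DEWAX was called lower at all 7.

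HRE1 and HRE2, ethylene response factors that act in low oxygen, were members from the hypoxia list. HRE1 was at 2.71, 3.34 and 3.92 FPKM in the ABA pools, against 9.99, 16.6 and 24.9 FPKM in the mock pools, and its mock level fell (slope -0.21 ± 0.050, adjusted p = 0.0190, limma, lost without the 1 or 12 h pool). HRE1 shares 124 bases with P40 on the opposite strand, which averaged 862 FPKM in the mock pools. Whether counting used the strand is not given in the sources used here, and the part of P40 in HRE1's values was not tested. HRE2 had 0.689, 2.1 and 7.33 FPKM under ABA, against 5.02, 12.6 and 33.8 FPKM under mock, with both series highest at 3 h and overlapping ranges. Of the 11 hypoxia genes 3 were called lower at all 7 times in the authors' deposited table, HRE1, HRE2 and the haemoglobin gene HB1, and the fermentation gene ADH1 had a mean effect of 1.31. WRKY18, a WRKY factor of pathogen responses, fell in both series, by 0.56 ± 0.0485 log2 units per doubling of hours in the ABA pools (adjusted p = 0.00317, limma) and by 0.59 ± 0.11 in the mock pools (adjusted p = 0.0101, limma), the second lost without the 0.5 h pool. Its level under ABA was 39.4 FPKM at 0.5 h and 4.92 FPKM at 24 h, and under mock 146 and 19.8 FPKM. The other regulators, chosen here for their families after their values were seen, included the AP2/B3 factor genes RAV1 and EDF3 (mean effects -1.55 and -1.98), the DREB-type gene TINY (-2.21), the zinc finger genes ZAT7 and AZF3 (-2.16 and -1.56), LBD38, a repressor of nitrate-responsive genes (-1.44), bZIP63 (-1.87) and WRKY29 (-1.25).

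Hormone-related members covered several pathways besides ABA. The 11 genes of this group had a median mean effect of -2.08. Among them, 5 were SAUR genes, small auxin-responsive transcripts of which many promote cell expansion. SAUR1 had 0.303, 0.679 and 3.98 FPKM in the ABA pools, against 8.58, 13.4 and 27.4 FPKM in the mock pools, and SAUR5 had 0, 0.984 and 3.82 FPKM under ABA, against 5.75, 20.2 and 35.5 FPKM under mock. Neither pair of ranges overlapped, and SAUR5, with -3.10, was among the 5 lowest effects at 0.5 h. The authors' deposited table called SAUR1 lower at all 7 times and SAUR5 at 4 only. SAUR62 (mean effect -1.75), SAUR76 (-1.52) and SAUR51 (-1.09) were closer to the mock.

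Enzymes of hormone synthesis in this group were CYP735A2, which makes trans-zeatin cytokinins (mean effect -2.57), CYP90D1, a brassinosteroid hydroxylase (-1.55), and ACO1, an oxidase of the last step of ethylene synthesis. ACO1 was at 2.68, 3.17 and 6.06 FPKM in the ABA pools, against 10.8, 19.3 and 24.1 FPKM in the mock pools. In the ethylene list of 13 genes, ACO1 and ACO4 were called lower at all 7 times in the authors' deposited table, and no gene was called higher at all 7. ACO4, with a mean effect of -0.69, was not a member. OPR1, which encodes a 12-oxophytodienoate reductase, was among the 6 most abundant members, with 129, 241 and 468 FPKM under ABA, against 309, 873 and 1163 FPKM under mock. It overlaps its neighbour OPR2 by 216 bases on the same strand, and how reads in the shared bases were counted is not given in the sources used here. ABCB21, an auxin transporter gene, and GASA5, of the gibberellin-regulated peptide family, had mean effects of -2.08 and -2.37.

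Cell wall genes and peroxidases numbered 11, with a median effect of -1.27 at 0.5 h, -2.98 at 3 h and -2.07 at 24 h. PRX71, a class III peroxidase of the cell wall, had 8.34, 11.5 and 40.6 FPKM in the ABA pools, against 125, 307 and 489 FPKM in the mock pools. Its effect was -2.14 at 0.5 h and -4.84 at 24 h, and its mock level rose with time (slope 0.34 ± 0.031, adjusted p = 0.00340, limma), which held without each pool in turn. A second peroxidase, PRX37, had 1.70, 2.69 and 5.13 FPKM under ABA, against 12.1, 35.4 and 78.7 FPKM under mock, and its mock level also rose (0.52 ± 0.061, adjusted p = 0.00500, limma, held without each pool). XTH31, an enzyme that acts on xyloglucan chains, was at 19.5, 56.9 and 94.8 FPKM in the ABA pools, against 108, 346 and 498 FPKM in the mock pools. PME12, a pectin methylesterase, had a mean effect of -2.63.

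Another set of wall genes moved down with time in both series. FLA9 and FLA13 encode fasciclin-like arabinogalactan proteins. FLA9 was at 272 FPKM in the 0.5 h ABA pool and 43.9 FPKM in the 24 h ABA pool, against 507 and 173 FPKM in the mock pools of these times. Its slope was -0.59 ± 0.095 under ABA (adjusted p = 0.00958, limma) and -0.36 ± 0.061 under mock (adjusted p = 0.00779, limma). FLA13 was at 141 and 29.3 FPKM in the same ABA pools, against 359 and 131 FPKM in the mock pools, with slopes of -0.56 ± 0.10 under ABA (adjusted p = 0.0141, limma) and -0.33 ± 0.051 under mock (adjusted p = 0.00682, limma). The ABA and mock ranges of both genes overlapped over the day although each ABA pool was below its own mock pool, and all 4 slope calls held without each pool in turn. No gene of the lists of 15 alpha-expansins and 16 xyloglucan endotransglucosylases was a member, since XTH31 was not on the list.

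Among 14 defence and surface genes, EARLI1 and AZI1 had the lowest mean effects, -5.49 and -3.99. They are adjacent genes for proline-rich proteins of the lipid transfer type, and AZI1 is known for its part in systemic immunity primed by azelaic acid. EARLI1 had 4.99, 13.1 and 35.1 FPKM in the ABA pools, against 184, 715 and 1657 FPKM in the mock pools. AZI1 had 20.6, 43.0 and 59.9 FPKM in the ABA pools, against 191, 872 and 1278 FPKM in the mock pools. With OPR1, they had the highest mean mock levels of the members, 867 FPKM for EARLI1, 798 FPKM for OPR1 and 752 FPKM for AZI1. Their mock levels rose with time, EARLI1 by 0.64 ± 0.054 log2 units per doubling of hours (adjusted p = 0.00340, limma) and AZI1 by 0.51 ± 0.070 (adjusted p = 0.00567, limma), and both calls held without each pool in turn. Under ABA neither slope passed (EARLI1 -0.18, adjusted p = 0.475, and AZI1 -0.06, adjusted p = 0.663, limma). The effect on EARLI1 was -2.88 at 0.5 h and -7.25 at 9 h.

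AZI1 lies at chr4:7401087-7401951 and EARLI1 at chr4:7406065-7406994 on the minus strand of TAIR10.1, with no gene between them. Their gene sequences, from annotated start to end, are 78.97% identical over 913 aligned positions, so some reads may be split between the 2 in a way the table does not show. The 250 bases before each gene start, from RefSeq on TAIR10.1, are shown for the same reason, a comparison of the 2 copies, at chr4:7406995-7407244 and chr4:7401952-7402201 (both minus strand), with the ABRE core in capitals.
EARLI1: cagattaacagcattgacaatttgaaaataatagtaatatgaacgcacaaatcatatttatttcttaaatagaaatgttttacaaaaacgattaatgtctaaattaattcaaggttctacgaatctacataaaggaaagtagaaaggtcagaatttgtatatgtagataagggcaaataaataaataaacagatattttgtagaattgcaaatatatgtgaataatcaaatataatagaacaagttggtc
AZI1: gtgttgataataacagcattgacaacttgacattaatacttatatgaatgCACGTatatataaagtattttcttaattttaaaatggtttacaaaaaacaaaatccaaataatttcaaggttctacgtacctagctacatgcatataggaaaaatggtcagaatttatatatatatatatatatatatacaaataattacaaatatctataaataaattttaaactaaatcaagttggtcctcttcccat
AZI1 holds 1 ABRE core, in reverse orientation starting 200 bases before the gene start, and EARLI1 holds none. Of 9 genes in the surrounding cluster these 2 were called lower at all 7 times in the authors' deposited table and none was called higher at all 7. AT4G12490 and AT4G12500 had mean effects of -5.08 and -4.06 but missed the rule at 1 time or more (highest effects -0.57 and -0.55). AT4G12510 and AT4G12520, in the same cluster, had mean effects of 0.55 and 0.51.

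Of the other 12 defence members, 6 are described here. CRK29 and CRK30 encode cysteine-rich receptor-like kinases, with mean effects of -2.37 and -3.0, and CRK30 was listed at 0 in the 12 h ABA pool. HIR2, a membrane protein of the hypersensitive reaction family, was at 81.7 FPKM in the 0.5 h ABA pool and 9.75 FPKM in the 24 h ABA pool, against 145 and 95 FPKM in the mock pools of these times. It fell along the ABA pools (slope -0.64 ± 0.068, adjusted p = 0.00404, limma), which held without each pool in turn, and its mock slope of -0.13 missed the threshold (adjusted p = 0.0618, limma). HIR2 shares 387 bases with VDAC1 on the opposite strand, which averaged 271 FPKM in the mock pools, and whether counting used the strand is not given in the sources used here. CML42, a calmodulin-like calcium sensor gene, SGT1A, a co-chaperone of immune receptors, and CMPG1, a U-box protein gene, had mean effects of -1.73, -1.18 and -1.08. None of the 15 salicylate defence genes on a separate list was a member or was called at all 7 times in either direction in the authors' deposited table.

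Transporters and nutrient genes numbered 10, with a median mean effect of -2.1. SUC1, a sucrose symporter gene, was at 12.1, 20.1 and 39.2 FPKM in the ABA pools, against 67.5, 108 and 147 FPKM in the mock pools, with its lowest effect, -3.41, at 3 h and -1.88 at 24 h. Genes of iron handling were VTL5, a vacuolar iron transporter-like gene (mean effect -2.81), F6'H1, the hydroxylase that makes iron-mobilising coumarins (-2.66), and YSL1, a metal-nicotianamine transporter gene (-1.24). VTL5 was at 25 FPKM in both the 0.5 and 1 h ABA pools and at 0.998 FPKM in the 3 h ABA pool, against 55.0, 48.7 and 41.5 FPKM in the mock pools of these times. AMT1;3, an ammonium transporter gene, and LSU3, a gene of the low-sulphur response, had mean effects of -1.83 and -1.67. DTX1, a MATE efflux carrier gene, was the steepest riser in the mock pools, at 8.26 FPKM at 0.5 h and 90.8 FPKM at 24 h (slope 0.66 ± 0.16, adjusted p = 0.0199, limma). That call was lost without the 0.5, 1 or 12 h pool. Under ABA DTX1 also ended above its 0.5 h level, at 3.82 and 15.4 FPKM, and DTX1 shares 297 bases with a gene on the opposite strand, AT2G04039, which averaged 109 FPKM in the mock pools.

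Metabolic and redox genes formed a group of 18 with a median mean effect of -1.86. BCAT4, which starts the chain elongation of methionine for glucosinolates, was at 7.48, 12.8 and 39.4 FPKM in the ABA pools, against 42.9, 87.4 and 165 FPKM in the mock pools. It was lowest relative to the mock at 9 h (-3.33) and back to -2.04 at 24 h. NEET, an iron-sulphur protein gene, had its lowest effect at 24 h, -4.41, with 19.8 FPKM under ABA against 442 FPKM under mock. FTM1, a stearoyl-acyl carrier protein desaturase gene, fell along the mock pools (slope -0.44 ± 0.057, adjusted p = 0.00563, limma, held without each pool) and was at 1.14 FPKM in the 24 h ABA pool against 12.8 FPKM in the 24 h mock pool. Others in the group were UGT85A1, which glucosylates cytokinins (mean effect -1.89), and the glutaredoxin gene GRXS13 (-1.95).

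Chaperones and proteases were few, 6 members, and had their lowest median effect at 3 h, with -4.40. AT4G21870, an HSP20-like small chaperone gene, had 5.79, 9.81 and 32.9 FPKM in the ABA pools, against 80.1, 131 and 305 FPKM in the mock pools. AT1G29090, a cysteine protease gene, was at 0.0245, 0.083 and 7.96 FPKM in the ABA pools, against 10.8, 22.1 and 45.6 FPKM in the mock pools, with 7.68 and 7.96 FPKM at 0.5 and 1 h and below 0.3 FPKM from 3 h. The authors' deposited table called AT1G29090 lower at 3 times. HSP90.1, a stress-induced chaperone, and AT5G51440, another HSP20-like gene, peaked at 3 h in both series. HSP90.1 reached 29.8 FPKM under ABA against 87.5 FPKM under mock, and AT5G51440 reached 59.2 FPKM under ABA against 310 FPKM under mock.

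The remaining 44 members had no clear role, and 15 of the 143 encode proteins that the annotation calls uncharacterised. Lowest among them was AT1G27020 (mean effect -4.26), with 1.27, 1.52 and 16.6 FPKM in the ABA pools, against 44.9, 73.9 and 160 FPKM in the mock pools. It was at 15.2 FPKM in the 1 h ABA pool and 1.45 FPKM in the 3 h ABA pool. AT1G52200, a PLAC8 family gene, had a mean effect of -3.72, with 3.76, 4.70 and 9.76 FPKM under ABA, against 40.4, 106 and 116 FPKM under mock. AT4G08555, an uncharacterised gene, was among the 6 most abundant members, at 67.1, 122 and 228 FPKM under ABA, against 151, 541 and 690 FPKM under mock.

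A separate question was how the members behaved over time inside each treatment, which the rule did not ask although it used the same pools. Because members were chosen by their levels in these pools, their slopes are not free of the selection. The shares of members and of all genes below are therefore set side by side as a description only. A line on log2 hours was fitted by limma to the 7 ABA pools and to the 7 mock pools of all 20034 genes that reached 1 FPKM in 2 or more of the 14 pools, with Benjamini-Hochberg adjustment over all of them. The error is the spread of pools round the line and not a replicate error, neighbouring times were treated as independent, and the p-values may therefore be too small. All 143 members could be tested.

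Under ABA, 47 members fell with time (32.9%) and 5 rose (3.50%). Over all 20034 genes 9.88% fell and 7.27% rose, and over those with a mean mock level of at least 5 FPKM 10% fell and 7.9% rose. Without the 0.5, 1 or 12 h ABA pool the count of falling members was 24, 28 and 30, and the count of rising members was 2 without the 0.5, 1 or 9 h pool and 3 without the 6, 12 or 24 h pool. The 5 that rose were SAUR51, DTX1, AT2G28690, AT3G10120 and AT1G60640, and among these the call of AT1G60640 (slope 0.33 ± 0.031, adjusted p = 0.00317, limma) held without each pool in turn. Of the 47 that fell, 20 held without each pool, among them HIR2, WRKY18, FLA9, FLA13, F6'H1 and CML42.

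In the mock pools 48 members fell with time (33.6%) and 27 rose (18.9%). Of all 20034 genes 14.9% fell and 14% rose, and of those with a mean mock level of at least 5 FPKM 15.6% fell and 16.5% rose. The share of members that rose was thus near that of genes with such a mock level. Falling members numbered 28 and 30 without the 0.5 or 1 h pool, and rising members 13, 10 and 15 without the 0.5, 1 or 12 h pool. With a line on hours in place of log2 hours hardly any call was left, 0 higher and 0 lower under ABA (7 and 30 at an unadjusted p under 0.05, limma) and 1 and 1 under mock (15 and 44 at an unadjusted p under 0.05, limma). The steepest falls were AT3G06070 (-0.65 ± 0.065, adjusted p = 0.00416), WRKY18 (-0.59) and AT4G38820 (-0.53 ± 0.10, adjusted p = 0.0103, limma), and the steepest rises DTX1 (0.66), EARLI1 (0.64) and AT5G44575 (0.62 ± 0.079, adjusted p = 0.00563, limma).

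These counts are given by role without a test. Of the 25 transcription regulators 11 fell in the mock pools and 1, ORA59, rose (slope 0.23 ± 0.045, adjusted p = 0.0109, limma, lost without the 0.5 h pool). Of the 11 cell wall genes and peroxidases 5 rose, PRX71, PRX37, AT5G19890, PME12 and XTH31, and 4 fell. Of the 27 members that rose under mock, 5 also rose under ABA, 2 fell and 20 were not called. Of the 48 that fell under mock, 26 also fell under ABA, 22 were not called, and none rose. No slope was called in either series for 49 members.

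**Figure D3:**
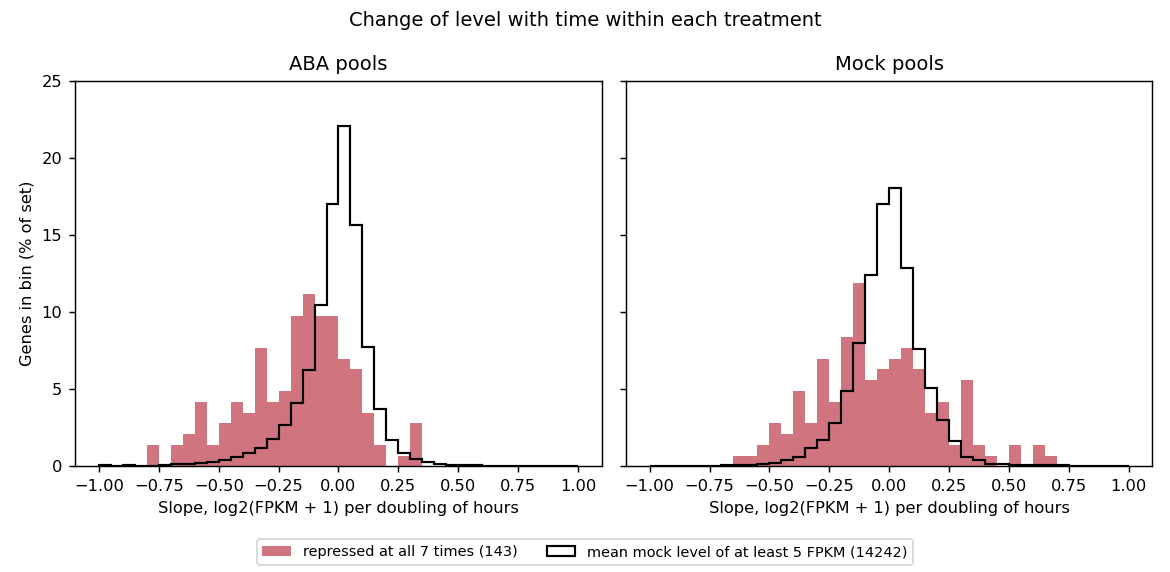
Distribution of the slope on log2 hours, in log2(FPKM + 1) per doubling of hours, in the ABA pools (left) and the mock pools (right), as percent of each set; filled bars are the 143 members and the outline is the 14242 tested genes with a mean mock level of at least 5 FPKM. The members' bars lie further to the left in both panels, with a median slope of -0.14 under ABA and -0.06 under mock against 0.01 and 0.00 for the outline. The rule used the same pools, so this shift is a description only.

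Because the mock itself moved, the ABA level at 24 h was also set against the mock level at 0.5 h, the earliest untreated value. In 133 members it was at least 0.8 log2 units lower, in 9 it was within 0.8, and in 1, DTX1, it was 0.82 higher. Of the 14245 genes with a mean mock level of at least 5 FPKM, 11.8% were at least 0.8 lower, 81.9% within 0.8 and 6.3% at least 0.8 higher, and nothing is read from this, since the rule already asked for a low 24 h ABA level. The 24 h mock pool was at least 0.8 above the 0.5 h mock pool in 26 of the 143 members and at least 0.8 below it in 51, beside 9.1% and 9.47% of the 14245 genes. For the 27 members that rose under mock, the median effect was -1.43 at 0.5 h and -2.49 at 24 h, and their 24 h ABA level was at a median of -1.23 log2 units relative to the 0.5 h mock level. For the 48 that fell under mock these values were -1.55, -1.75 and -3.27. The split used the slopes of the same mock pools that enter these medians, so nothing is read from their difference. From 0.5 to 24 h the effect became lower by at least 1 in 43 members, higher by at least 1 in 6 (DEWAX, AT2G28780, AT4G38820, BEE3, HRE1 and SAUR5), and changed by less than 1 in 94. Of the 14245 genes, 5.46% had an effect lower by at least 1 at 24 h and 3.9% one higher by at least 1. Nothing is read from these shares either, since the rule used the effects at both times.

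**Figure D4:**
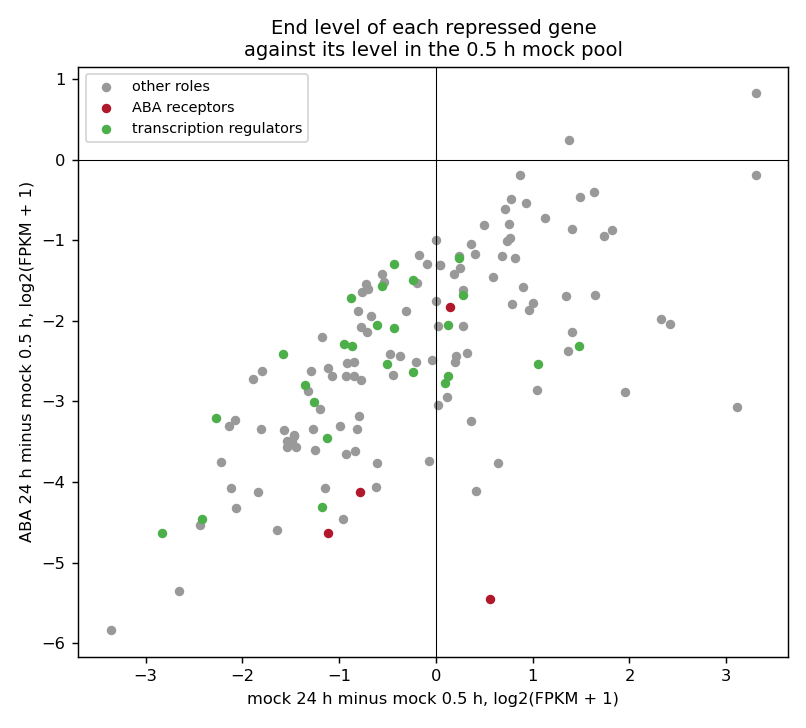
Difference of the 24 h ABA pool from the 0.5 h mock pool (vertical) against the difference of the 24 h mock pool from the 0.5 h mock pool (horizontal), both in log2(FPKM + 1), 1 point per member; red points are ABA receptors and green points transcription regulators. Most points lie below the horizontal line at 0, with 133 of 143 members at -0.8 or lower, and 26 members lie at 0.8 or more to the right.

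The members' promoters were searched for 10 short motifs on both strands, from 250 bases before to 50 bases after the annotated gene start in TAIR10.1. The ABRE core ACGTG was present in 35 of 143 members, 24.5% (Wilson 95% interval 18.2 to 32.1%). It was in 57.5% of the genes that were induced at all 7 times and had a mean mock level of at least 5 FPKM. Of all genes with such a mock level 28.2% held it, and of all protein-coding genes 26.7%. The G-box CACGTG, which contains an ABRE core, was in 5.59% of members (2.86 to 10.7%), 28.2% of the induced genes and 7.68% of all protein-coding genes. GCCGCC, the GCC box bound by ethylene response factors, was in 6.29% of members (3.35 to 11.5%), beside 2.57% of all protein-coding genes, and its 9 holders included ORA59 and PRX37. TATAAA was in 62.9% of members (54.8 to 70.4%) and 52.1% of all protein-coding genes, and TTGAC, the W-box core of WRKY factors, in 53.1% (45.0 to 61.1%) and 50.5%. For CCGAC (the DRE core) the shares were 12.6% of members and 15.0% of all, for AAACCCTAA (telo box) 1.40 and 3.60%, for AAAATATCT (evening element) 5.59 and 2.82%, for TGTCTC (auxin response element) 13.3 and 14.2%, and for GATAAG (I-box) 13.99 and 14.6%. A match is a description of letters and not of a bound site.

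Members lay on all 5 chromosomes, 40, 18, 26, 26 and 33 of them on chromosomes 1 to 5, and all 143 are protein-coding. In 11 cases a member and the next one along the chromosome lay within 5 genes of each other, and in 5 of these the 2 genes were adjacent. The counts per chromosome and of near pairs were not set beside those of other genes, so clustering was not tested. The adjacent pairs were AZI1 with EARLI1, AT4G24110 with YSL1, the GRAM domain genes AT5G23350 and AT5G23360, AT5G44574 with AT5G44575, and the ankyrin repeat genes AT5G54710 and AT5G54720. The other 6 were AT1G03820 with GRXS13, GRXS13 with FLA9, AT1G07050 with LSH6, AT3G01260 with HIR2, WRKY29 with SGT1A and SAUR1 with SAUR5. AT5G23350 and AT5G23360 are 88.6% identical over 657 bases, and AT5G54710 and AT5G54720 are 88.1% identical over 402 bases, so their separate values are uncertain. EPR1, a MYB-like gene, matches AT3G10113 at 99.7% over 1455 bases and SAUR62 matches SAUR75 at 95.1% over 616 bases, and both values are likewise uncertain. In all, 21 members overlap another listed gene, 16 of them 1 with at least 1 FPKM in the mock pools. No share of other genes with such an overlap was computed.

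Members had a median longest transcript of 1357 bases, beside 1690 bases for all genes with a mean mock level of at least 5 FPKM. At 24 h the median effect of such genes was -0.45 in the shortest length decile (median 760 bases, 33 members). It was 0.34 in the longest length decile (median 3624 bases, 4 members). The 24 h effects of short genes thus include a shift towards lower values that short genes shared. When the median effect of genes of like length was subtracted at each time, 20 members no longer met the threshold at some time, and 131 of 143 still met it at 24 h. Their median mean mock level was 20.5 FPKM, beside 19.8 FPKM for all such genes, and 21 members averaged at least 100 FPKM.

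Lists of related pathways held few members. Besides 4 of 14 ABA receptors, 2 of 11 hypoxia genes, 2 of 9 genes of the EARLI1 cluster, 1 of 13 ethylene genes and 1 of 7 wax genes, no list had any. The counts called lower and higher at all 7 times in the authors' deposited table were 0 and 1 of 5 proline metabolism genes, 0 and 0 of 10 type-A response regulators, 1 and 1 of 15 alpha-expansins and 0 and 1 of 16 xyloglucan endotransglucosylases. They were 0 and 0 of 17 auxin response genes, 0 and 1 of 15 gibberellin genes, 1 and 3 of 12 root iron uptake genes and 0 and 0 of 12 stomatal development genes in the authors' deposited table. None of the leaf mesophyll, root and guard cell markers was called at all 7 times in the authors' deposited table, and 1 of the 4 seed markers was called higher at all 7. Over whole lists the median mean effect was -1.10 for the EARLI1 cluster, -1.08 for salicylate defence and -0.73 for hypoxia genes. It was -0.53 for type-A response regulators and -0.44 for ABA receptors. Higher values were 0.73 for wax genes, 0.99 for root iron uptake, 1.07 for seed markers and 3.45 for clade A PP2Cs. The other lists had -0.39 (stomatal development) to 0.44 (proline metabolism). For all genes with a mean mock level of at least 5 FPKM the value was -0.01.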

How the data were processed

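RNA of 28 libraries was sequenced by the submitters, who name FastQC, STAR and the TAIR10 genome in the submitters' processing notes, without versions. The authors deposited 1 FPKM value per gene and group, made from its 2 libraries together. The headers give no unit, so FPKM was taken from the behaviour of the values, and the way libraries were combined is not given in the sources used here. The deposited table also holds the authors' yes/no calls of significance, a column of another kind (unit other), which were counted with the sign of the difference and are the authors' own, by a test not given in the sources used here. Fold columns of the authors' deposited table were not used.

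Depth per pool was estimated from the most frequent product of a low FPKM value and transcript length minus 250 bases, over genes with 1 annotated transcript, read as 1 fragment. Whether all values are whole multiples of it was not tested.

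Members and lists were chosen with earlier results of these data known, and the role groups and the names given to them were made after the members had been seen. By rule the text names the 12 lowest mean effects, the 6 highest mean mock levels, the 5 lowest effects at 0.5 h and at 24 h, the 3 steepest mock slopes each way, the 3 nearest to the threshold on each side, members of the 19 lists and members within 5 genes of each other. Other members named were picked after their values were seen. The 19 lists are those whose counts stand in the last paragraph of the results, with leaf, root, guard cell and seed markers among them.

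Effects used a pseudocount of 1, which makes the differences of genes near 0 FPKM smaller. Slopes were fitted with limma 3.58.1 in R 4.3.3 (eBayes with a trend) on log2(FPKM + 1), with a Benjamini-Hochberg threshold of 0.05. On simulated mock pools (20034 genes, 50 changed by each size) the slope fit recovered 24, 76, 90 and 100% of slopes of 0.1, 0.2, 0.4 and 0.8, with 4 false calls. The simulated noise was independent between times and smaller than each gene's own spread over the mock pools. These rates need not hold for the real pools. No test of ABA against mock was run. Names, coordinates and sequences came from RefSeq on TAIR10.1, which matched 32813 entries. Intervals of shares are Wilson 95% intervals (scipy 1.17.1) and cover counting error only. Some items are not reported here. Alternatives were other pseudocounts, thresholds, filters, scalings, time scales and windows, and leaving out each time.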

Additional observations from a re-analysis of the deposited data

How the results depend on the processing

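No paired analysis was possible because the table holds 1 pooled value per group and no value per library, so no replicate could be left out and no replicate block fitted; leaving out each time took its place. The count of 143 members was 228 with a threshold of -0.6 and 88 with -1, and 143 to 241 when each time was left out. With a pseudocount of 0.1 the median effects from 0.5 to 24 h were -1.52, -1.81, -2.55, -2.63, -2.53, -2.33 and -2.35. With a slope on hours in place of log2 hours, 1 member was called higher and 1 lower in the mock pools, and 0 and 0 in the ABA pools. Leaving out each pool gave 10 to 31 members higher and 28 to 51 lower in the mock pools, and 2 to 6 higher and 24 to 54 lower in the ABA pools. Pseudocount, filter, scaling, robust moderation and a joint fit of the 14 pools kept these counts within 1.5 times. The mock slopes of the 6 steepest members kept their sign in every alternative. On hours 5 of them, all but AT5G44575, missed the threshold. Without the 0.5 h pool WRKY18 (adjusted p = 0.0699, limma) did, and DTX1 did without the 0.5, 1 or 12 h pool (adjusted p = 0.172, 0.0810 and 0.0513, limma). Motif shares before the gene start alone stayed within the intervals given. Nothing reversed. Subtracting the median of the length decile, an alternative chosen after seeing the data, gave 125 genes, 123 of them members. ABA levels near 0 FPKM limit the size of the lowest effects.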
